A study of Mus musculus with 12 samples.

Results

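The genes described here are 8 core genes of the PI3K, Akt and mTOR pathway: Pik3ca, Pik3cb, Pik3r1, Akt1, Akt2, Mtor, Rptor and Rictor. Each was taken as the locus of the deposited table that carries the gene's symbol, and, where several loci carried it, as the one with the highest mean level. All 8 were found among 33864 loci, and all 8 passed the filter on low values that left 13803 loci for testing. The rule names genes by symbol, and each of the 8 symbols was carried by 1 locus, so no choice by mean level was needed.

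RNA was sequenced from subcortical white matter of 12 mice, with 3 mice in each of 4 groups. Mutants of the dnEGFR line (Sox10-tTA;TRE-dnEGFR, a truncated EGF receptor that blocks ErbB signalling) and their TRE-dnEGFR littermates without the Sox10 driver were given doxycycline from postnatal day 21 to 35 and sampled at day 35. Mutants of the ErbB2V664E line (Sox10-tTA;TRE-ErbB2V664E, a receptor made constantly active by a change in its membrane segment) and their TRE-ErbB2V664E littermates were given it from day 21 to 30 and sampled at day 30. Every group thus carried a transgene under the TRE promoter and received doxycycline, no group carried the driver alone, and the labels do not say whether doxycycline switched the transgene on or shut it off. The Sox10 driver is active in the oligodendrocyte lineage, whereas the libraries hold RNA of every cell in the dissected tissue, so more RNA per cell and more cells of a type cannot be told apart. Each mutant has a named littermate control, which gives 6 litter pairs. Markers of mature oligodendrocytes, which include the myelin genes, were high in every library, with a summed level of 701 to 1878 FPKM over 8 genes (FPKM counts fragments per kilobase and corrects for library depth). From the steps of the lowest values, 1 FPKM stands for an estimated 16.6 to 24.7 fragments for each kilobase of a transcript, depending on the library.

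Class I PI3 kinases sit directly downstream of receptor tyrosine kinases such as the ErbB family. A catalytic subunit (p110, encoded by Pik3ca or Pik3cb) bound to a regulatory subunit (p85, encoded by Pik3r1) phosphorylates a membrane lipid to PIP3, which recruits the kinase Akt. Akt relieves the brake that the TSC complex places on mTOR complex 1, which contains raptor (Rptor) and drives protein and lipid synthesis, while mTOR complex 2, which contains rictor (Rictor), phosphorylates Akt itself. In oligodendrocytes the pathway is known for its part in myelin growth. It works mainly through phosphorylation, which RNA levels do not measure.

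The defining subunits of the mTOR complexes are shown first by the DNA before their transcription starts. Their promoters lay at opposite ends of the 8 genes in the percentage of G and C. The sequences are those of RefSeq on GRCm38.p6, plus strand, with CG dinucleotides in capitals, and each window ends at the base before the start. The first window is chr11:119602655-119602904 and the second is chr15:6708131-6708380.
Rptor: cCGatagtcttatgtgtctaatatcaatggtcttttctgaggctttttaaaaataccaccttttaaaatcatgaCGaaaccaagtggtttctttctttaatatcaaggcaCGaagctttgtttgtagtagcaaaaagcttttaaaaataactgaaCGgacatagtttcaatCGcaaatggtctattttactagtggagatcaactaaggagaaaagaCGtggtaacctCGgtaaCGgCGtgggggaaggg
Rictor: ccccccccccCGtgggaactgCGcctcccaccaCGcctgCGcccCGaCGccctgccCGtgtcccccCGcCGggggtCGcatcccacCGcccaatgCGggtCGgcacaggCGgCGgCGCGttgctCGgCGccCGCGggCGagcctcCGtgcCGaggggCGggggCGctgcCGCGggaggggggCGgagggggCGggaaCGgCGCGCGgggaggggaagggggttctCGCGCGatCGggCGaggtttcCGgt
The Rptor window held 9 CG dinucleotides and 37.6% G and C, and the Rictor window held 40 and 81.2%. Over all 32851 RefSeq windows of 250 bases the medians were 6 CG dinucleotides and 52.4%. Of those windows, 7.92% had less G and C than that of Rptor and 59.7% had fewer CG dinucleotides. For the window of Rictor these shares were 99.1% and 98.7%. The 8 genes matched 13 windows in all, since Akt2 has 4 annotated starts and Pik3r1 and Akt1 have 2 each. The window of Pik3ca held 19 CG dinucleotides, that of Pik3cb 32 and that of Mtor 19. For Pik3r1 they numbered 30 and 6, for Akt1 31 and 7, and for Akt2 10, 0, 5 and 2. FOXO transcription factors are excluded from the nucleus by Akt, and their core motif, spelled GTAAACA or TGTTTAC on the other strand, occurred once, in a window of Akt1. It occurred in 3.17% of all windows. No methylation or binding was measured, so these windows are a description.

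Levels per transcript length were ordered much alike in all 4 groups. Akt1 was the highest of the 8 in all 12 libraries, with a mean of 24.9 FPKM and no overlap with the gene after it. Pik3r1 and Mtor followed at 10.7 and 10.6 FPKM, and their ranges overlapped. Rictor at 5.44, Akt2 at 5.41 and Pik3ca at 5.06 FPKM overlapped in turn, and Pik3cb at 3.75 and Rptor at 2.74 FPKM were the lowest. The ranges of Mtor and Rictor, and those of Pik3ca and Pik3cb, did not overlap.

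**Figure D1:**
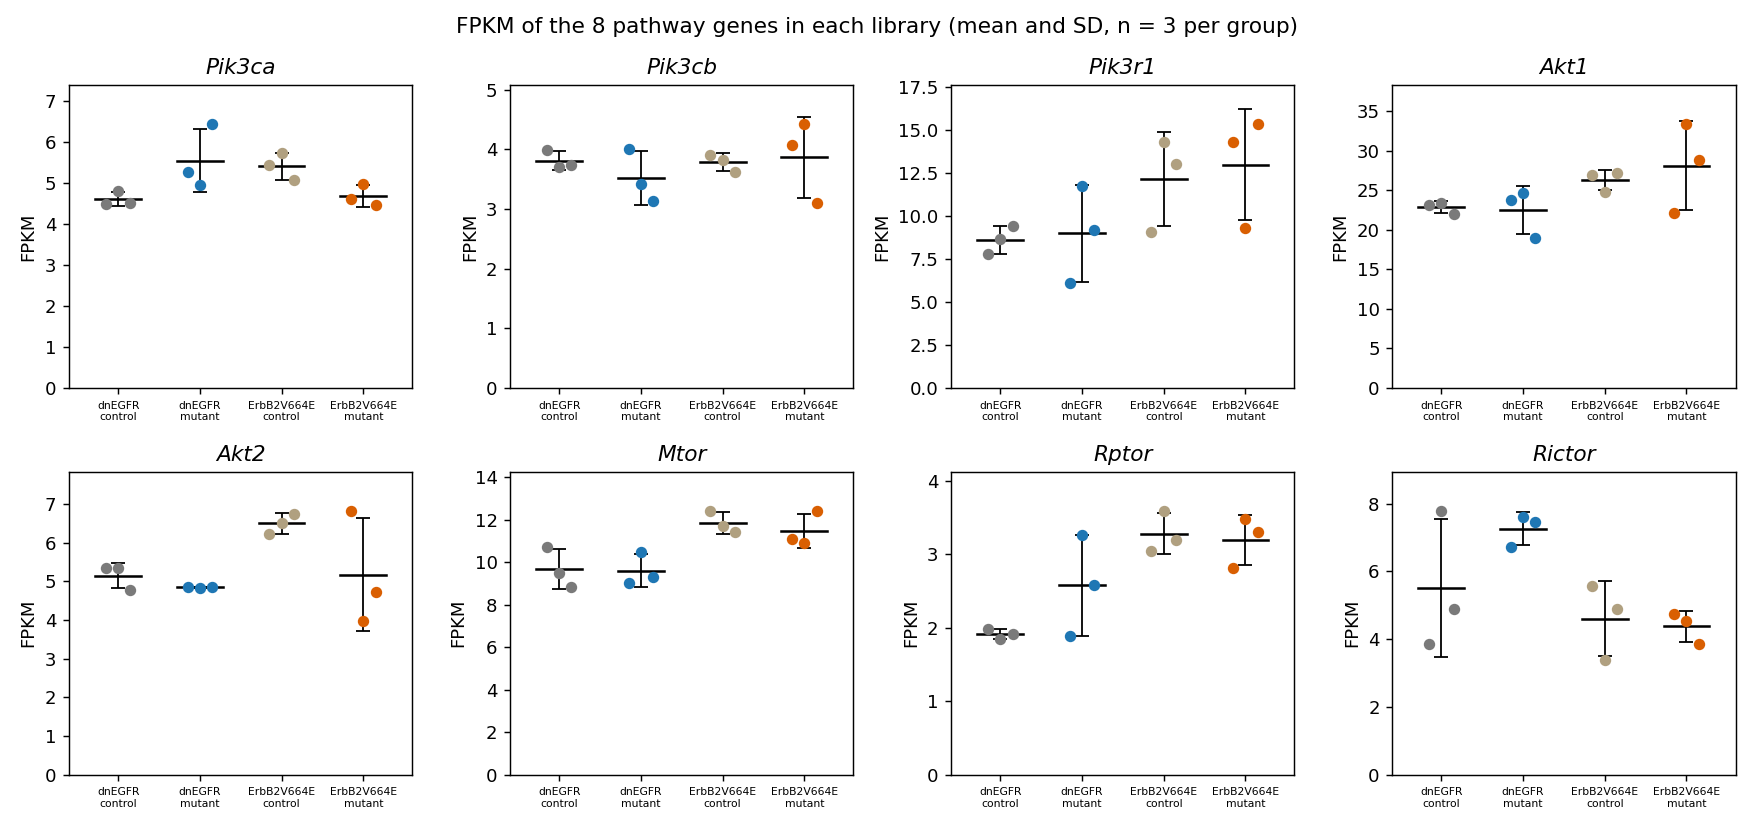
FPKM of each gene in each library (points), with the mean and SD of the 3 mice per group (black); each panel has its own vertical axis from 0. Pik3ca was higher in all 3 dnEGFR mutants and lower in all 3 ErbB2V664E mutants than in the controls of the same line, and Mtor was higher in all 6 ErbB2V664E-line libraries than in all 6 dnEGFR-line libraries.

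None of the 8 genes changed in the mutants of either line by the test over all loci. The count was 0 of 8 in dnEGFR mutants, where 0.0942% of all tested loci were called (limma on log2(FPKM + 1), adjusted p under 0.05), and 0 of 8 in ErbB2V664E mutants, where 0.275% were called. The difference between the mutant effects called 0 of 8, against 0.116% of all loci. At an unadjusted p under 0.05 the members numbered 1, 0 and 1 in these comparisons, against 5.69%, 12.1% and 9.01% of all loci. The median log2 change of the 8 was 0.00 in dnEGFR and -0.03 in ErbB2V664E mutants, beside 0.01 and 0.00 over all tested loci. With the litters as a block, the calls over all loci fell from 13 to 3, from 38 to 7 and from 16 to 4 in these comparisons, and none was a member.

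**Figure D2:**
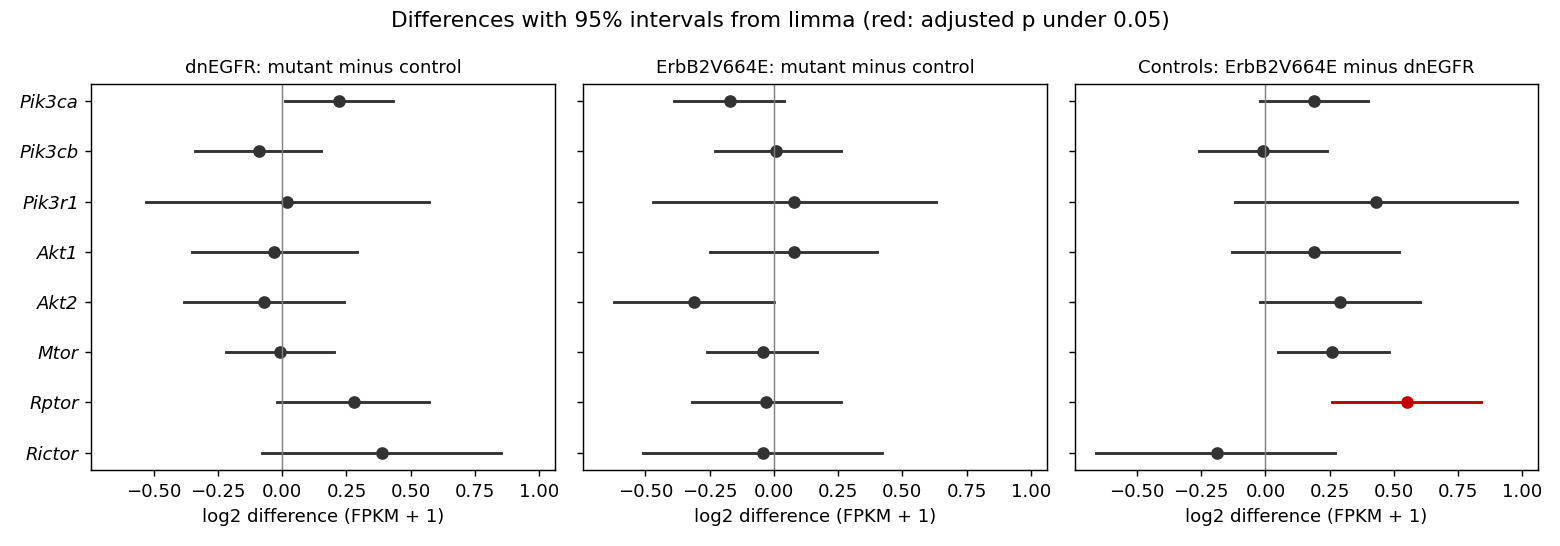
Log2 difference of each gene (point) with its 95% interval from limma (line), on the log2(FPKM + 1) scale, for mutant minus control in each line and for the controls of the ErbB2V664E line minus those of the dnEGFR line. The interval of each gene in the mutant panels includes 0 at this scale except that of Pik3ca in dnEGFR mutants (0.01 to 0.43), and Rptor (0.55) was the 1 gene called, in the control panel.

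Pik3ca encodes p110 alpha, the catalytic subunit that most receptor tyrosine kinases use. Its level was 4.50, 4.81 and 4.51 FPKM in the dnEGFR controls and 5.28, 4.94 and 6.43 FPKM in the mutants. In the other line it was 5.44, 5.73 and 5.07 FPKM in the controls and 4.61, 4.97 and 4.47 FPKM in the mutants. The groups did not overlap in either line, with the mutants above their controls in the first and below them in the second. The log2 difference was 0.22 (SE 0.09, 95% interval 0.01 to 0.43, adjusted p = 0.867) in dnEGFR and -0.17 (SE 0.09, -0.39 to 0.04, adjusted p = 0.501) in ErbB2V664E mutants, so neither passed the test over all loci. The difference between these effects was -0.39 (SE 0.13, -0.69 to -0.09), with an adjusted p of 0.443. Of all tested loci, 10.1% had groups that did not overlap in the dnEGFR line (5.58% with the mutants higher), 18.2% in the ErbB2V664E line (8.96% with the mutants lower) and 0.927% in both lines with opposite directions. Pik3ca was the 1 member of 8 in each of these sets.

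The other catalytic subunit, p110 beta (Pik3cb), which also responds to G protein-coupled receptors, stayed within 3.11 to 4.42 FPKM in all 12 libraries. It measured 3.99, 3.71 and 3.74 FPKM in dnEGFR controls, 4.01, 3.42 and 3.13 in dnEGFR mutants, 3.91, 3.83 and 3.63 in ErbB2V664E controls, and 4.08, 4.42 and 3.11 in ErbB2V664E mutants. All 4 groups overlapped. Its log2 difference was -0.09 (95% interval -0.34 to 0.15) in dnEGFR and 0.01 (-0.23 to 0.26) in ErbB2V664E mutants. The ratio of Pik3ca to Pik3cb was 1.13 to 1.30 in dnEGFR controls and 1.32 to 2.06 in the mutants. In the ErbB2V664E line it was 1.39 to 1.50 in the controls and 1.12 to 1.44 in the mutants, which overlap. How often ratios of other gene pairs separate mutants from controls was not counted, and 10.1% of single loci did so in the dnEGFR line.

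Pik3r1 encodes the p85 alpha regulatory subunit, which stabilises p110 and couples it to receptors, and it was the most variable of the 8 between mice of a group. The dnEGFR controls gave 7.77, 8.65 and 9.39 FPKM and the mutants 6.08, 11.7 and 9.15. The ErbB2V664E controls gave 9.06, 14.3 and 13.0 FPKM and the mutants 14.3, 9.31 and 15.3. Mutants and controls overlapped in both lines, and the litter pairs did not share a direction in either. The intervals were wide, -0.53 to 0.57 around a log2 difference of 0.02 in dnEGFR and -0.47 to 0.63 around 0.08 in ErbB2V664E mutants. Its SD within groups was 0.33 on the log2 scale, above that of 75.5% of loci at a like level. Pik3r1 relative to the sum of Pik3ca and Pik3cb ranged from 0.654 to 2.02 over the 12 libraries.

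Akt1 is the Akt kinase tied most to growth and survival. It measured 23.1, 23.4 and 22.0 FPKM in dnEGFR controls, 23.8, 24.6 and 19.0 in dnEGFR mutants, 26.9, 24.8 and 27.1 in ErbB2V664E controls, and 22.1, 33.3 and 28.8 in ErbB2V664E mutants. The mutants spread more widely than their controls and overlapped them in both lines. Its log2 difference was -0.03 (SE 0.15, 95% interval -0.35 to 0.29) in dnEGFR and 0.08 (SE 0.15, -0.25 to 0.40) in ErbB2V664E mutants.

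Akt2, the Akt kinase tied most to insulin signalling, was nearly constant in the dnEGFR line, at 5.33, 5.33 and 4.77 FPKM in controls and 4.84, 4.82 and 4.86 in mutants. In the ErbB2V664E line the controls gave 6.22, 6.51 and 6.75 FPKM and the mutants 6.81, 3.98 and 4.72. Mutants 2 and 3 lay below every control and mutant 1 above them all. The log2 difference was -0.31 (SE 0.14, 95% interval -0.62 to 0.00, adjusted p = 0.417). Without ErbB2V664E mutant 1 it was -0.49 with an adjusted p of 0.0348, in a fit that called 235 loci in place of 38. With each library left out in turn it ran from -0.49 to -0.17, with adjusted p-values from 0.0348 to 0.790. Marker sums also differed between these mutants. Choroid plexus markers summed to 636 FPKM in mutant 1, to 97.0 in mutant 3 and to less than that in mutant 2. The controls gave 245 to 565, so the sum of mutant 1 lay above and those of mutants 2 and 3 below every control, as for Akt2. Most of this sum was Ttr (617 FPKM in mutant 1). In mutant 1, Ttr, Aqp1 and Clic6 lay above every control, and Folr1 (2.91 FPKM) and Kl (4.78) within their range. Clic6 of mutant 3 also lay within that range. In the dnEGFR controls the sum was 19.6, 711 and 617 FPKM, beside Akt2 at 5.33, 5.33 and 4.77. In the ErbB2V664E mutants, mature oligodendrocyte markers summed to 1131, 701 and 969 FPKM, all below their controls (1151 to 1878). Red blood cell markers summed to 118, 32.5 and 22.1 FPKM (controls 95.5 to 214), and microglial markers to 99.4, 64.7 and 56.6 FPKM (controls 98.0 to 130), with mutants 2 and 3 below and mutant 1 within the range of the controls for both. The part of these cell types in the Akt2 values was not tested.

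The ratio of Akt1 to Akt2 was 3.80 to 5.10 in the 3 other groups and 3.25, 8.37 and 6.11 in the ErbB2V664E mutants. Within these mutants Akt1 and Akt2 differed in opposite directions, with the highest Akt1 and the lowest Akt2 in mutant 2.

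Mtor encodes the kinase of both mTOR complexes and was, with Pik3ca, the least variable within groups (SD 0.10 on the log2 scale for each, above 15.4% and 14.0% of loci at a like level). The dnEGFR controls gave 10.7, 9.49 and 8.84 FPKM and the mutants 9.03, 10.5 and 9.28. The ErbB2V664E controls gave 12.4, 11.7 and 11.4 FPKM and the mutants 11.1, 10.9 and 12.4. Mutants overlapped controls in both lines, and the 2 lines did not overlap each other, at 8.84 to 10.7 against 10.9 to 12.4 FPKM. Such a separation of the 6 libraries of a line from the 6 of the other was seen at 19.9% of all tested loci and, of the 8 genes, in Mtor alone. The mutant differences were -0.01 (95% interval -0.22 to 0.20) in dnEGFR and -0.04 (-0.26 to 0.17) on the log2 scale in ErbB2V664E, the tightest intervals of the 8 together with those of Pik3ca.

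Rptor encodes raptor, which brings substrates to mTOR complex 1. It measured 1.99, 1.85 and 1.91 FPKM in dnEGFR controls, 1.89, 3.26 and 2.59 in dnEGFR mutants, 3.05, 3.59 and 3.20 in ErbB2V664E controls, and 2.82, 3.48 and 3.30 in ErbB2V664E mutants. The dnEGFR controls were close together and low, mutant 1 of that line lay among them and mutants 2 and 3 lay above. The log2 difference in dnEGFR mutants was 0.28 (SE 0.13, 95% interval -0.02 to 0.57, adjusted p = 0.894), and in ErbB2V664E mutants it was -0.03 (SE 0.13, -0.32 to 0.26).

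Rictor encodes the scaffold that defines mTOR complex 2. It measured 3.86, 7.78 and 4.90 FPKM in dnEGFR controls and 6.71, 7.62 and 7.46 in dnEGFR mutants. The ErbB2V664E controls gave 5.56, 3.38 and 4.88 FPKM and the mutants 4.74, 4.55 and 3.86. Of the dnEGFR controls, mouse 2 lay above all 3 mutants and the others below them. The log2 difference of 0.39 in dnEGFR mutants had an SE of 0.21 and an interval of -0.08 to 0.85 (adjusted p = 0.930), and that in ErbB2V664E mutants was -0.04 (-0.51 to 0.42). The ratio of Rptor to Rictor was 0.237 to 0.517 in the dnEGFR line and 0.548 to 1.06 in the ErbB2V664E line. The lines did not overlap in this ratio, and mutants and controls overlapped within each. How often ratios of other gene pairs separate the lines was not counted, and 19.9% of single loci did so.

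The controls of the 2 lines differ in transgene, age at sampling and length of doxycycline treatment, and in anything else that went with the line, and these cannot be told apart. Rptor was higher in the ErbB2V664E controls, at 3.28 ± 0.279 FPKM (SD, n = 3) against 1.92 ± 0.0736 in the dnEGFR controls. The log2 difference was 0.55 (SE 0.13, 95% interval 0.26 to 0.84), with an adjusted p of 0.0162, and it was the 1 call among the 8 genes where 20.0% of all loci were called and 10.9% were called higher. At an unadjusted p under 0.05 there were 2 (Rptor and Mtor), against 34.3% of all loci. Without ErbB2V664E control 2 the adjusted p was 0.0541. In the GENCODE annotation Rptor overlaps Rptoros and Gm11761 on the opposite strand, and Mtor overlaps Angptl7. No strand-keeping step is described for the libraries, so reads of such partners cannot be told apart. Of the others, Pik3ca (log2 difference 0.19), Akt1 (0.19), Akt2 (0.29) and Mtor (0.26, adjusted p = 0.0790) also had ErbB2V664E controls all above the dnEGFR controls. With Rptor this makes 5 of 8 against 21.6% of all loci, counted on unscaled FPKM. Summed FPKM over all loci was also higher in every ErbB2V664E control (127253 to 130276) than in every dnEGFR control (117363 to 120097). Scaling factors from the median ratio over loci were 1.001 to 1.030 in the former and 0.998 to 1.003 in the latter. Pik3r1 differed by 0.43 (-0.12 to 0.98), Rictor by -0.19 and Pik3cb by -0.01, all with overlapping groups. The median of the 8 was 0.23, beside 0.01 over all loci.

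A wider list of 121 pathway genes was read in the same way, of which 120 had a locus and 113 were tested. None was called in dnEGFR mutants, in ErbB2V664E mutants or in the difference between them. At an unadjusted p under 0.05 there were 8, 18 and 10 of the 113, beside the 5.69%, 12.1% and 9.01% of all loci given above. The medians were 0.01, -0.02 and -0.02 on the log2 scale.

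**Figure D3:**
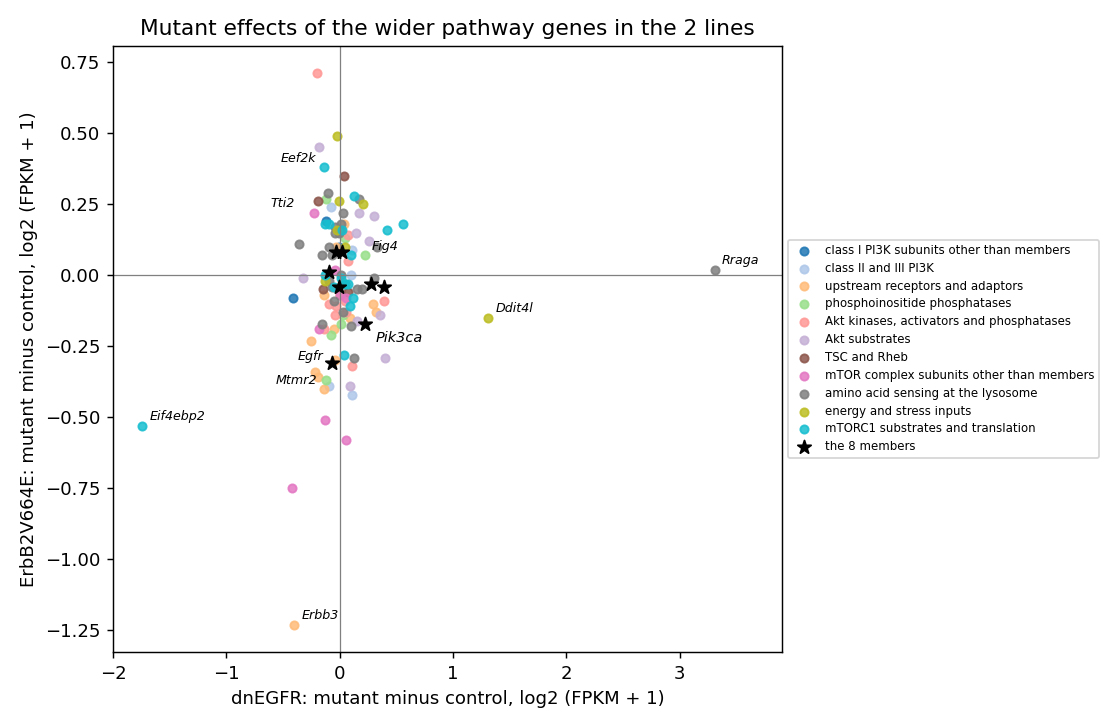
Log2 difference of mutant minus control in the dnEGFR line (horizontal) and in the ErbB2V664E line (vertical) on the log2(FPKM + 1) scale, for 113 tested genes of the wider list coloured by role and for the 8 core genes (stars). Rraga (3.31) stands far to the right, Eif4ebp2 far to the left and Erbb3 (-1.23) lowest, and no gene in the plot was called in either comparison.

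Of the upstream receptors and adaptors, 12 of 14 had a negative log2 difference in ErbB2V664E mutants, beside 6766 of 13803 tested loci. Their median was -0.17 beside 0.00 over all loci, and none was called. Pdgfra of this list is also a precursor marker, and 6 of 6 precursor markers were negative, with a median of -0.19. The part of cell types in the values of these receptors and adaptors was not tested. The smallest p of the whole list belonged to Erbb3, the ErbB receptor that binds PI3K most directly. It measured 8.23, 7.75 and 9.29 FPKM in ErbB2V664E controls and 4.57, 2.78 and 2.04 in the mutants. These groups did not overlap, and the log2 difference of -1.23 (SE 0.24) had an adjusted p of 0.0810. Mature oligodendrocyte markers, with which Erbb3 shares its cell type in part, had a median of -0.77 in the same comparison, with 8 of 8 negative and 1 called, and their part in the value of Erbb3 was not tested. Without ErbB2V664E mutant 1, Erbb3 was called at -1.47 (adjusted p = 0.0168). With each library left out in turn it gave -1.47 to -1.03, with adjusted p-values from 0.0168 to 0.272. Egfr gave 2.01, 1.93 and 1.88 FPKM in those controls and 1.50, 1.18 and 1.48 in the mutants (-0.30, adjusted p = 0.202).

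Among the phosphatases that remove phosphates from phosphoinositides, Mtmr2 measured 11.0, 11.5 and 11.3 FPKM in ErbB2V664E controls and 8.66, 7.94 and 9.00 in mutants. The groups did not overlap, and the log2 difference of -0.37 (SE 0.08) had an adjusted p of 0.0983. Fig4 had one of the smallest p-values of the list in dnEGFR mutants, with 8.02, 8.53 and 8.49 FPKM in controls and 9.62, 9.51 and 10.6 in mutants (0.22, adjusted p = 0.812). Mutations in either gene cause inherited disease of myelinated nerves.

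Of the mTOR complex genes outside the 8, Tti2, which helps assemble the complexes, was lower in all 3 dnEGFR mutants than in their controls and higher in all 3 ErbB2V664E mutants. Its level was 2.10, 2.12 and 2.14 against 1.56, 1.84 and 1.58 FPKM in the first line, control before mutant, and 2.21, 2.68 and 2.22 against 2.89, 3.06 and 2.81 FPKM in the second. The difference between the effects was 0.45 (SE 0.11, adjusted p = 0.349), opposite in direction to that of Pik3ca. Among mTORC1 substrates and translation genes, Eef2k, the kinase that slows elongation, measured 3.45, 3.78 and 3.95 FPKM in ErbB2V664E controls and 4.60, 5.40 and 5.45 in the mutants (0.38, SE 0.10, adjusted p = 0.170).

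Genes for amino acid sensing at the lysosome numbered 25 tested, and none was called in mutants. Rraga, a GTPase that recruits mTOR complex 1 to the lysosome, measured 3.39 FPKM in dnEGFR control 1 and was listed at 0 in the other 2 controls, while the mutants gave 23.3, 30.8 and 4.58 FPKM. All 6 ErbB2V664E-line libraries gave 27.1 to 30.3 FPKM. The adjusted p was 0.211 in dnEGFR mutants, 0.0165 without dnEGFR mutant 3 and 0.0369 without dnEGFR control 1. With each library left out in turn it ran from 0.0165 to 0.435. A value of 0 can be a failed assignment in the assembly, which was not tested for Rraga. Ddit4l, a stress-induced inhibitor of mTOR complex 1, gave 0.581, 0.325 and 0.361 FPKM in dnEGFR controls and 0.791, 2.94 and 5.21 in the mutants (1.31, SE 0.35, adjusted p = 0.512), against 2.43 to 3.40 FPKM in the ErbB2V664E line. Without dnEGFR mutant 1, Ddit4l was called at 1.80 (adjusted p = 0.00537). Leaving out each library in turn gave 0.90 to 1.80, with adjusted p-values from 0.00537 to 0.675. Spreads of over 3-fold between mice of a group were seen in 13 of the 113 genes, in none of the 8 core genes and in 24.7% of all tested loci.

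Between the controls of the lines, 26 of the 113 genes were called, beside 20.0% of all loci. Of the 26, 17 were higher and 9 lower in the ErbB2V664E controls, beside 1502 higher and 1259 lower over all loci. Prr5 and Ddit4l are among the 17, and neither would have passed the filter on low values without the ErbB2V664E line. With quantile normalisation the split was 17 higher and 14 lower, beside 1318 higher and 1627 lower over all loci. The largest role, amino acid sensing, had 3 higher and 3 lower of 25, with a median of -0.09.

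**Figure D4:**
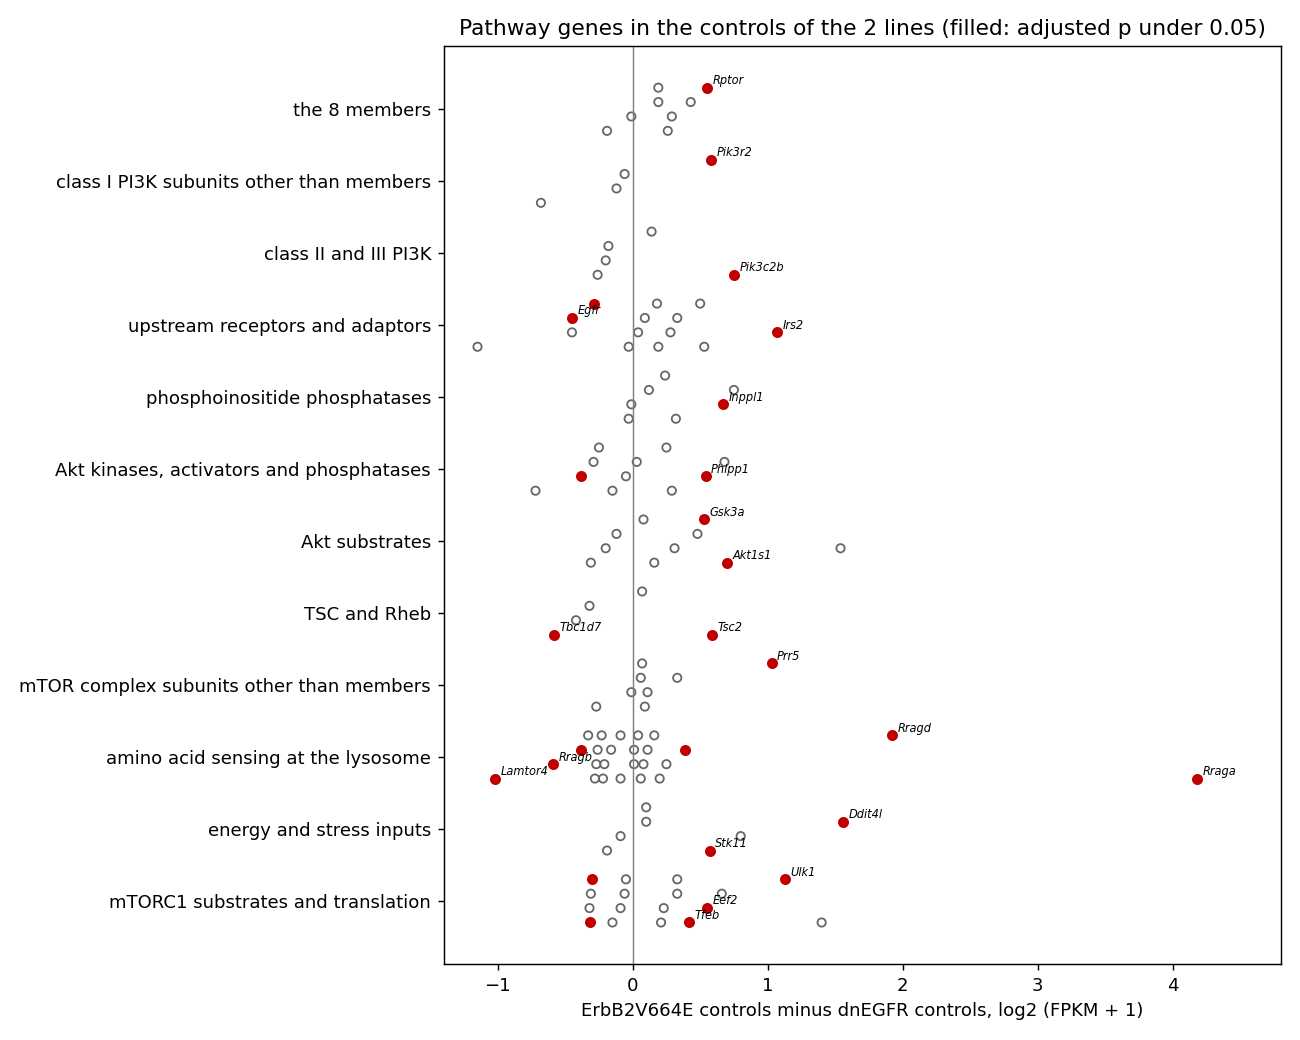
Log2 difference of ErbB2V664E controls minus dnEGFR controls on the log2(FPKM + 1) scale, with 1 row for the 8 core genes and 1 for each role of the wider list; filled points passed an adjusted p of 0.05, and those of them beyond 0.4 in either direction carry a name. Rraga (4.18) and Rragd (1.92) lie farthest to the right, and called genes lie on both sides of 0.

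Among those higher in the ErbB2V664E controls at the lysosome were Rragd (12.1 to 18.8 against 2.75 to 4.11 FPKM, log2 difference 1.92, adjusted p = 0.000156) and Rraga, with the zeros given above. Rragd forms a heterodimer with Rraga or Rragb, and its levels in the 2 lines lay far apart. Lower there were Lamtor4 of the Ragulator anchor (-1.02), Rragb (-0.59) and Rragc (-0.38). The Rag GTPase genes thus did not share a direction.

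The other roles each held 1 to 5 called genes, and the 1 call of the mTOR complex role was Prr5. Tsc2, the GTPase-activating subunit of the TSC complex, measured 15.3 to 16.0 against 9.69 to 10.8 FPKM (0.59, adjusted p = 0.000808). Akt1s1, the Akt substrate PRAS40 that restrains mTOR complex 1, differed by 0.70, and Inppl1, a phosphatase of PIP3, by 0.67. Phlpp1, a phosphatase of Akt, differed by 0.54, Stk11, the kinase upstream of AMPK, by 0.57 and Ddit4l by 1.56. Ddit4l lay below 1 FPKM in all dnEGFR controls and would not have passed the filter without the ErbB2V664E line. Tbc1d7, the third subunit of the TSC complex, was lower (-0.58), and so was Ppp2ca, the catalytic subunit of PP2A (-0.38). Pik3r2, the p85 beta subunit, measured 26.9 to 32.8 against 18.4 to 19.9 FPKM (0.58, adjusted p = 0.00291). Irs2, an insulin receptor adaptor whose locus is joined with Gm44956, differed by 1.07, and Pik3c2b, a class II PI3K, by 0.75. Prr5, an mTOR complex 2 subunit, differed by 1.03, at 1.08 to 2.31 against 0.285 to 0.489 FPKM. It stayed below 1 FPKM in every library of the dnEGFR line (0.178 to 0.489). Prr5 thus passed the filter on low values only through the line where it was higher, and its call is given as a description.

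Among targets, the autophagy kinase Ulk1 measured 12.4 to 14.1 FPKM in the ErbB2V664E controls and 5.20 to 5.68 in the dnEGFR controls (1.13, adjusted p = 0.00254). The lysosomal transcription factor Tfeb (0.42), the Akt target Gsk3a (0.53) and the elongation factor Eef2 (0.55) were also higher. Ribosomal protein gene Rps6 (-0.32), Eif4a1, whose locus is joined with Senp3 (-0.30), the adhesion kinase Ptk2 (-0.29) and Egfr (-0.45) were lower. Within the dnEGFR line Egfr was 2.64 to 3.32 FPKM in controls and 2.77 to 3.08 in mutants (-0.04). The part of the dnEGFR transgene in these values was not tested. Leaving out 1 library ended the call of Rps6, Eif4a1, Ptk2 and Tfeb, and above of Pik3c2b, Tbc1d7 and Lamtor4, at adjusted p-values of up to 0.128. Fitting only the control groups ended that of Ppp2ca (adjusted p = 0.0501), and testing with no filter on low values that of Eef2 (adjusted p = 0.0680).

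Cell type markers also differed between these controls. The median log2 difference was 0.28 for mature oligodendrocyte, 0.28 for precursor, 0.27 for astrocyte, 0.30 for microglial and 0.71 for striatal neuron markers, beside 0.23 for the 8 core genes and 0.01 over all loci. It was 0.04 for neuron, 0.23 for endothelial, 0.29 for choroid plexus and 0.23 for red blood cell markers. Called higher were 1 of 6 tested astrocyte, 1 of 8 microglial, 1 of 8 neuron and 2 of 7 striatal neuron markers, and 1 of 6 precursor markers was called lower, where 20.0% of all loci were called. None of the 8 mature oligodendrocyte, 6 endothelial, 5 choroid plexus and 5 red blood cell markers was called. Summed levels did not overlap for striatal neuron markers (197 to 360 FPKM in ErbB2V664E and 106 to 178 in dnEGFR controls) and for astrocyte markers (239 to 417 and 181 to 200 FPKM). The part of these cell types in the differences of the pathway genes was not tested.

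The locus most like each gene was found by the Pearson correlation of log2(FPKM + 1) over the 12 libraries, among 12210 tested loci with 1 symbol. For Rptor it was Tcf25 (r = 0.97), for Mtor Usp42 (0.95), for Akt2 Acsbg1 (0.94) and for Akt1 C230088H06Rik (0.93). Rictor was most like Elmod2 (0.92), Pik3r1 like Zbtb20 (0.91), Pik3cb like 1600014C10Rik (0.91) and Pik3ca like Stk35 (0.86). These are the highest of many values, the points share their groups and litters, and they are given as a description.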

How the data were processed

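Per the labels' protocols, polyadenylated RNA of 12 mice was fragmented, primed with random hexamers and sequenced in paired ends. The deposited values are FPKM from StringTie, per the design text, and HISAT is also listed in the submitters' processing notes. Build, annotation and versions: not given in the sources used here. Fragment numbers were estimated from the steps of low FPKM values, of which 28.6% to 31.9% were whole steps (tolerance 0.01), so no count test was run.

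Here log2(FPKM + 1) was tested with limma 3.58.1 in R 4.3.3, two-sided, with 1 mean per group over all 12 libraries and a variance trend, for loci at 1 FPKM or more in at least 3 libraries, with Benjamini-Hochberg adjustment over 13803 loci. P-values reflect the spread between mice. The fit was tested on simulated data. Differences on this scale understate changes of low genes.

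The labels name a littermate control for each mutant, which pairs the libraries. Correlations of their deviations were 0.02, 0.01, 0.03, 0.00, 0.01 and -0.03. The genes and lists were chosen with earlier results of these data known. Named from the wider list were the called loci, except where an item is not reported here, and the 4 with the smallest p in each mutant comparison. Alternatives were a litter block, other pseudocounts, filters and scalings, loci summed by symbol, and leaving out each library. Promoter windows came from RefSeq, and overlapping genes from GENCODE M21. Python 3.11.15 and matplotlib 3.10.9 made tables and figures.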

Additional observations from a re-analysis of the deposited data

Results flagged for a closer look

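Pik3ca and Tti2 lay in opposite directions in the 2 lines, with no overlap between mutants and controls in either. The difference of the mutant effects (ErbB2V664E minus dnEGFR) was -0.39 on the log2 scale for Pik3ca and 0.45 for Tti2. Tested as an interaction in limma, neither passed over all loci, with adjusted p-values of 0.443 and 0.349 (0.563 and 0.532 with the litter block). Opposite separations of this kind were found at 128 of 13803 loci.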

How the results depend on the processing

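Of 1393 single-gene values under 22 alternatives, 1316 kept their direction and their side of the threshold, 40 lost and 7 gained the call, and 30 changed sign. The count of core genes called between the controls, 1, became 0 with a filter at 5 FPKM, which removed Rptor from the test, and ranged from 0 to 2 when 1 library was left out. The count in ErbB2V664E mutants, 0, ranged from 0 to 1, and those in dnEGFR mutants and in the difference of effects stayed 0. In the wider list, summing the loci of a symbol gave 1 call in ErbB2V664E mutants (Mtmr2, -0.51, adjusted p = 0.0464), and leaving out libraries gave 0 to 2 there, 0 to 1 in dnEGFR mutants, 0 to 1 in the difference and 20 to 28 between controls.

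With the litters as a replicate block, the counts of core genes and of the wider list stayed 0 in both mutant comparisons and in the difference. Over the whole table the 13 calls in dnEGFR mutants became 3 with the block and 22 when fitted on the groups compared alone. In ErbB2V664E mutants 38 became 7 with the block, 7 with the filter at 5 FPKM and 23 on the groups compared alone. The difference of effects called 16, then 4 with the block and 7 with that filter, and the control comparison 2761, then 1766 with that filter. Without 1 library these ran over 9 to 34, 12 to 235, 12 to 35 and 1809 to 2780. Log2 values that crossed 0 without 1 library were Akt1 (-0.10 to 0.08 in dnEGFR, -0.05 to 0.23 in ErbB2V664E, -0.02 to 0.26 in the difference), Pik3r1 (-0.18 to 0.25, -0.10 to 0.29, -0.16 to 0.27), Mtor (-0.07 to 0.06 in dnEGFR, -0.10 to 0.03 in the difference), Pik3cb (-0.07 to 0.13 in ErbB2V664E, -0.03 to 0.02 in controls), Rptor (-0.07 to 0.04 in ErbB2V664E) and Rictor (-0.21 to 0.08 in ErbB2V664E, -0.38 to 0.05 in controls). The cause of these shifts was not tested.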
